A study of Cucumis melo with 24 samples.

Results

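The peroxidases and antioxidant enzymes of melon (Cucumis melo) fruit flesh were taken as the genes whose deposited description contains peroxidase, catalase, superoxide dismutase, dehydroascorbate or peroxiredoxin. Of 29980 genes listed, 122 matched, and the 70 with at least 1 TPM (a transcript level scaled for gene length and library total) in at least 3 of 24 libraries are the members described here. The other 52 stayed under that threshold, and 27 of them were listed at 0 in every library. RNA-seq was made from flesh of wild-type (WT) fruit and of fruit of the cmnac-nor mutant, named for the NAC transcription factor gene CmNAC-NOR, at 15, 25, 35 and 45 days after pollination (DAP, with day 25 meaning 25 DAP). Each of the 8 groups of genotype and age has 3 libraries. The labels give neither the cultivar nor the nature of the mutation, and they do not say whether replicate libraries are from separate plants or fruits. All p-values therefore measure the spread between these libraries, which may be technical.

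Reactive oxygen species are made by respiration, photosynthesis, photorespiration and fatty acid breakdown, and by NADPH oxidases at the cell surface. Superoxide dismutases turn superoxide into hydrogen peroxide, and catalases in the peroxisome break hydrogen peroxide down without a reducing partner. Ascorbate peroxidases, glutathione peroxidases and peroxiredoxins reduce peroxides with ascorbate, glutathione or thioredoxin, and monodehydroascorbate reductases return oxidised ascorbate to use. The class III peroxidases of plants are a large family of secreted haem enzymes that act in the cell wall, where they can couple lignin precursors and cross-link wall polymers or generate reactive oxygen. During fruit ripening the wall is loosened, plastids are converted and hydrogen peroxide metabolism changes.

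The members fell into 9 enzyme groups by description. The largest held genes described as peroxidase with no further substrate, taken here as the class III type, of which 30 passed out of 75 matched. In the smaller groups 9 of 10 peroxiredoxins, 8 of 8 superoxide dismutases, 6 of 6 glutathione peroxidases, 5 of 6 ascorbate peroxidases, 5 of 7 monodehydroascorbate reductases and 2 of 3 catalases passed. A further 4 members are acid phosphatase or vanadium-dependent haloperoxidase-related proteins and 1 is a homologue of the Arabidopsis regulator OVEREXPRESSOR OF CATIONIC PEROXIDASE 3 (OCP3), which match by the word peroxidase and are not classical antioxidant enzymes. The 1 match that is a copper chaperone did not pass, and no gene matched as a dehydroascorbate reductase. The least detected members, MELO3C006862.2 and MELO3C031049.2, reached 1 TPM in 3 libraries, with maxima of 2.87 and 12.5 TPM. Just outside the threshold, MELO3C014652.2 and MELO3C016405.2 reached it in 2 libraries, with maxima of 2.87 and 1.72 TPM.

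TPM summed to between 927159 and 963192 per library over the listed genes, and between 13820 and 16044 genes reached 1 TPM. Read depth is unknown, because TPM keeps no depth. Libraries of a group correlated with each other at 0.913 to 0.980 across genes on the log2 scale, the lowest value being among mutant libraries at 15 DAP. WT replicate 2 at 35 DAP stood apart from its group in several members, and differences of named members whose call it changes are given with and without it. The summed TPM of 15 rind and epidermis genes was 154 in that library and 56.7 and 50.7 in the other WT libraries of that age. The part of rind in its values was not tested. The transcript of CmNAC-NOR itself (MELO3C016540.2, described in the deposited table as a NAC domain protein, its identity known from published work) was present in both genotypes, at 575 to 1027 TPM in WT and 24.6 to 320 TPM in the mutant at 15 DAP and at 430 to 511 against 1808 to 1920 TPM at 45 DAP, so its level is no check of the labels.

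Catalase transcripts were the most abundant of the enzyme groups by mean summed TPM except in WT at 35 and 45 DAP, where glutathione peroxidases were, and the ranges of the genotypes separated with age in several of them. In WT flesh the summed TPM of the class III type peroxidases was 836 to 1114 at 15 DAP, 383 to 413 on day 25, 387 to 521 on day 35 and 281 to 343 on day 45. In mutant flesh the same sum was 1463 to 4117, 743 to 1379, 1530 to 1735 and 1644 to 2901 TPM at the same ages. The mutant range lay above the WT range at every age. Glutathione peroxidases went the other way, with a sum in WT of 1025 to 1512 TPM at 15 DAP and 2407 to 2730 TPM at 45 DAP against 618 to 1687 and 629 to 772 TPM in the mutant. The catalase sum overlapped between genotypes at 15 DAP (3447 to 3819 TPM in WT, 3227 to 4558 TPM in the mutant) and was apart at 35 DAP, at 1218 to 1507 TPM in WT and 3788 to 5305 TPM in the mutant. Superoxide dismutases summed to 1510 to 1665 TPM in WT and 992 to 1149 TPM in the mutant at 45 DAP. These sums follow their most abundant genes and carry no test.

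**Figure D1:**
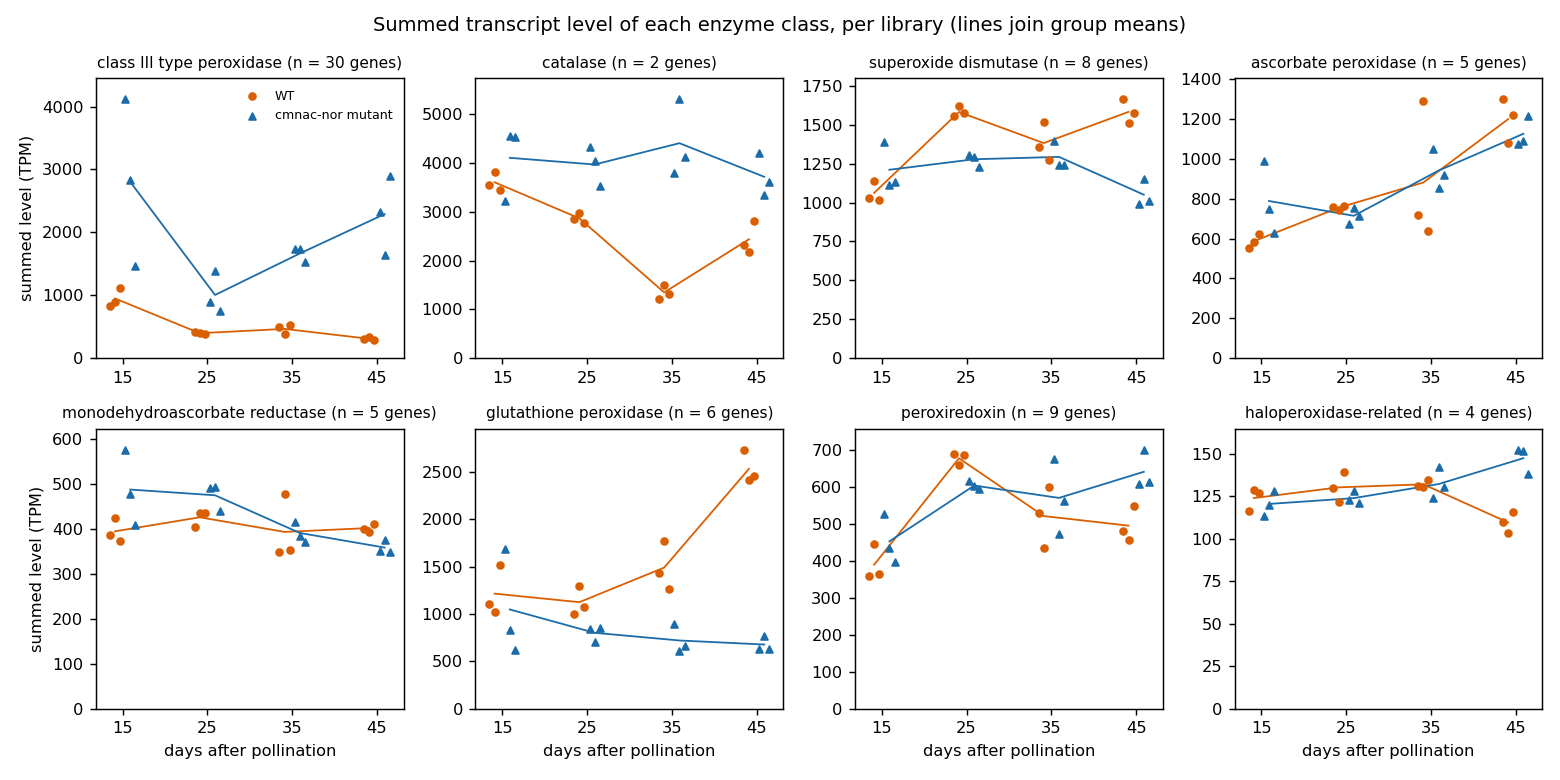
Summed TPM of each enzyme group (vertical axes, linear from 0) against age in days after pollination, with points for single libraries and lines through the means of 3 libraries for WT and for the cmnac-nor mutant. The class III type sum lies at 281 to 343 TPM in WT and 1644 to 2901 TPM in the mutant at 45 DAP, whereas the glutathione peroxidase sum is 2407 to 2730 TPM in WT and 629 to 772 TPM in the mutant.

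Mutant and WT flesh were compared at each age to ask which of these genes depend on genotype before and during ripening. Differences are given as log2 of (TPM + 1) in the mutant minus WT, which understates the change of genes with low values, with limma's standard error (SE) and its adjusted p, and a gene is called at an adjusted p under 0.05. At 25 DAP 35 of 70 members were higher and 20 lower in the mutant, where 50.5% of all 17658 genes tested were higher and 19.6% lower. At 35 DAP 23 were higher and 17 lower, against 38.5% and 21.5% of all genes. At 45 DAP 25 were higher and 18 lower, against 40.3% and 22.7% of all genes. In percent of the members these counts are 50.0% and 28.6%, 32.9% and 24.3%, and 35.7% and 25.7%. They are near the shares among all genes except at 25 DAP, where the share of members called lower was 28.6% beside 19.6%. The median difference over members was 0.48, 0.26 and 0.18 at 25, 35 and 45 DAP, beside 0.44, 0.27 and 0.22 over all genes.

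At 25 DAP the whole distribution was shifted towards the mutant, and the shift depended on scaling: the all-gene median of 0.44 became 0.09 under median-of-ratios scaling and -0.01 under quantile normalization. The members then split into 27 higher and 25 lower, beside 36.1% and 31.6% of all genes, and into 25 higher and 29 lower, beside 31.4% and 33.1%. For 35 DAP these scalings gave 22 higher and 20 lower (31.7% and 28.5% of all genes), and 21 and 22 (28.1% and 31.7%). For 45 DAP they gave 22 and 22 (33.8% and 30.3%), and 20 and 20 (28.6% and 34.7%). In bulk flesh, fewer cells of a type and less RNA per cell cannot be told apart, for these and all later differences.

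At 15 DAP 1 member was called, MELO3C003559.2, an ascorbate peroxidase of low level, where 1.66% of all genes were called higher and 2.28% lower. It stood at 0.22, 0.23 and 0.40 TPM in WT and 1.41, 1.55 and 0.89 TPM in the mutant. Its difference was 0.82 (SE 0.14, limma adjusted p = 0.0452), and it lost the call without any 1 of WT replicates 1, 2 and 3 or mutant replicates 1 and 2. At an unadjusted p under 0.05, 15 members were higher and 5 lower. Fitting all 24 libraries together called 8 higher and 2 lower, beside 10.3% and 7.99% of all genes. The libraries of the genotypes did not overlap for 25 of 70 members at 15 DAP (26.5% of all genes), 59 on day 25 (75.6%), 46 on day 35 (68.1%) and 49 on day 45 (70.1%).

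By age, 17 members were higher in the mutant at 25, 35 and 45 DAP (25.2% of all genes), 12 of them class III type peroxidases. At all of these ages 11 were lower (9.63% of all genes), 3 of them class III type. With only 1 member called at 15 DAP, at most 1 could be called in the same direction at all 4 ages, and none was. At no age were 7 members called (10.6% of all genes). The calls of 4 members changed side between ages (8.98% of all genes): MELO3C024527.2, a monodehydroascorbate reductase, and MELO3C007446.2, a chloroplastic peroxiredoxin Q, were lower at 25 DAP and higher on day 45, and MELO3C011964.2, described as peroxidase 57-like, and MELO3C004342.2, a Cu-Zn superoxide dismutase, were higher on day 25 and lower on day 45. The last 3 are named because this count is small, after their values were seen.

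**Figure D2:**
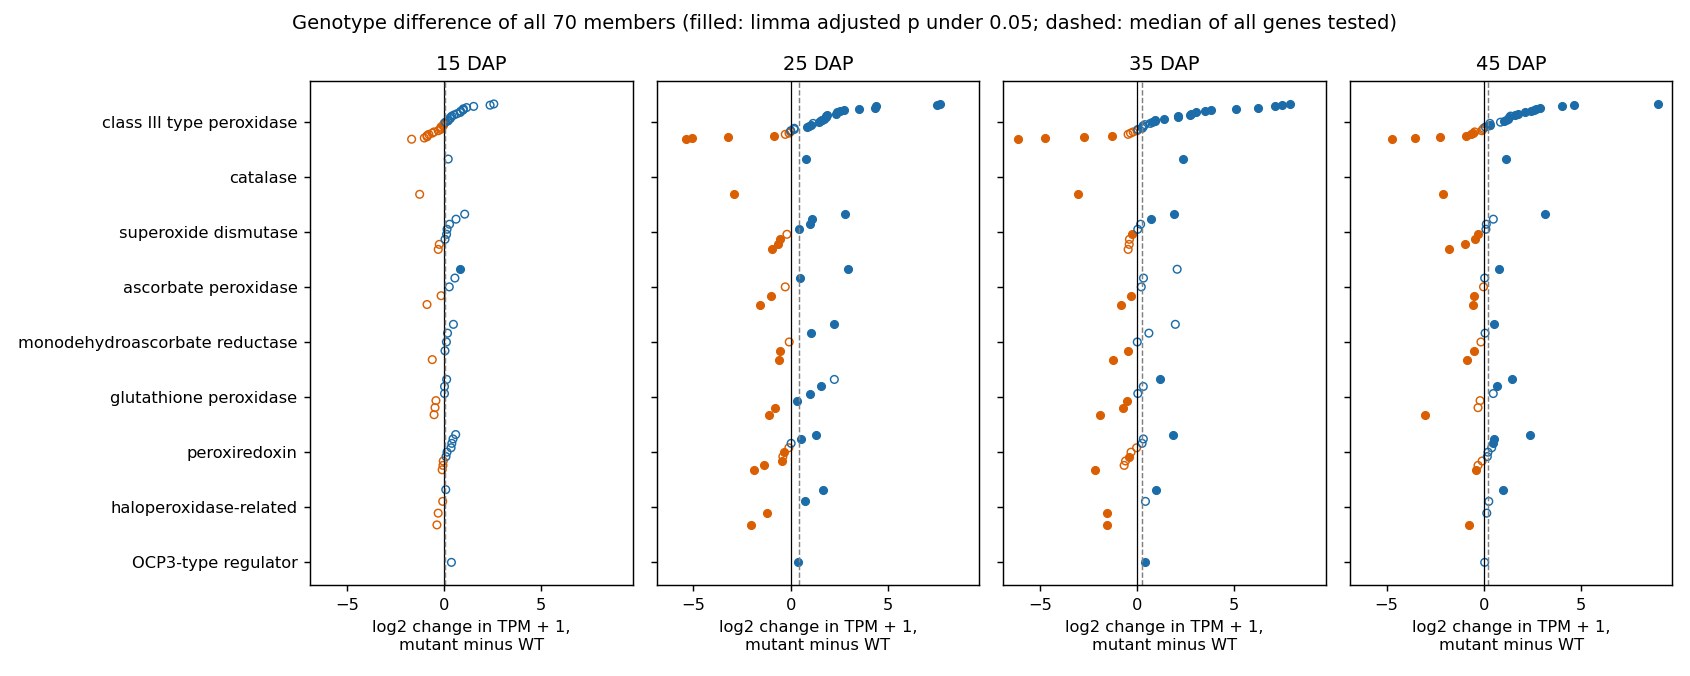
Difference between mutant and WT for each member in log2(TPM + 1), by enzyme group, in 1 panel for each age, with the median of all genes tested marked. At 25 DAP the class III type genes spread furthest on both sides, from MELO3C012183.2 at -5.38 to MELO3C014658.2 at 7.70.

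Among the class III type peroxidases most genotype calls were towards the mutant, as they were over all genes. Of 30, 18 were higher and 4 lower at 25 DAP, 16 and 4 on day 35, and 15 and 6 on day 45, with 0 called on day 15. In percent these are 60% and 13.3%, 53.3% and 13.3%, and 50% and 20%. Over all genes the shares were 50.5% and 19.6%, 38.5% and 21.5%, and 40.3% and 22.7%. The same all-gene shares stand beside the counts of the other enzyme groups below. The median difference of the class III type genes was 1.51, 0.85 and 0.96 at 25, 35 and 45 DAP, beside 0.44, 0.27 and 0.22 over all genes. Under median-of-ratios scaling the counts were 16 and 5, 16 and 4, and 15 and 8, and under quantile normalization 12 and 7, 14 and 5, and 13 and 7. Over all genes the first scaling called 36.1% and 31.6%, 31.7% and 28.5%, and 33.8% and 30.3%. The second called 31.4% and 33.1%, 28.1% and 31.7%, and 28.6% and 34.7%. In WT flesh 17 of the 30 were lower and 6 higher at 45 than at 15 DAP, while in the mutant 5 were lower and 5 higher. Over all genes 37.9% were lower and 25.1% higher in WT, and 12.4% lower and 13.5% higher in the mutant.

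Genes of vascular tissue also had most genotype calls towards the mutant. Over all genes 50.5%, 38.5% and 40.3% were higher at 25, 35 and 45 DAP, and 19.6%, 21.5% and 22.7% lower. Of 25 genes whose description contains phloem, sieve element or xylem, 18 were higher and 0 lower in the mutant at 25 DAP, 11 and 2 on day 35, and 17 and 0 on day 45. Their summed TPM in WT was 10121 to 19837 at 15 DAP, 1844 to 2934 on day 25, 181 to 371 on day 35 and 98.3 to 151 on day 45. In the mutant it was 11538 to 26184, 5934 to 9134, 3844 to 7147 and 7177 to 10600. At 35 and at 45 DAP 8 of the 25 were at 0 in all WT libraries. From 15 to 45 DAP 22 of the 25 fell and 0 rose in WT, and 11 fell and 1 rose in the mutant. Of the class III type peroxidases 5 fell and 5 rose in the mutant. The part of vascular tissue in the peroxidase differences was not tested. Genes with seed descriptions, such as oleosins and late embryogenesis proteins, summed to 1103 to 1586 TPM in WT and 4444 to 5679 TPM in the mutant at 25 DAP. Their sums overlapped at 15 DAP, at 6811 to 8101 TPM in WT and 6188 to 8432 TPM in the mutant. They were 1072 to 1638 TPM in WT and 3200 to 4294 TPM in the mutant on day 35. On day 45 they were 1544 to 1760 and 3486 to 5422 TPM. In single genes 27 of these 51 were higher and 10 lower in the mutant at 25 DAP, 13 and 13 on day 35, and 14 and 18 on day 45, and their part was not tested either. Rind and epidermis genes summed to 138 to 179 TPM in WT and 103 to 115 TPM in the mutant at 25 DAP, and their part was likewise not tested.

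The most abundant class III type peroxidase, MELO3C009329.2, took opposite courses in the genotypes (genotype by age, limma F test, adjusted p = 5.08e-11). In WT it stood at 177, 293 and 232 TPM at 15 DAP, 5.29, 3.03 and 4.41 on day 25, 3.44, 1.18 and 2.46 on day 35, and 3.08, 3.14 and 2.49 on day 45. In the mutant it stood at 91.3, 153 and 138 TPM at 15 DAP, 97.1, 164 and 70.9 on day 25, 1080, 555 and 719 on day 35, and 2068, 1369 and 2624 on day 45. From 25 DAP on every mutant library was above every WT library, whereas at 15 DAP all mutant libraries were below. The difference was 4.35 (SE 0.34, limma adjusted p = 0.000182) at 25 DAP, 7.87 (SE 0.35, adjusted p = 7.49e-05) on day 35 and 8.97 (SE 0.25, adjusted p = 2.08e-05) on day 45. From 15 to 45 DAP it fell by 5.89 in WT (SE 0.20, adjusted p = 1.58e-05) and rose by 3.96 in the mutant (SE 0.32, adjusted p = 0.0024). At 45 DAP this 1 gene carried 87.5% ± 3.79 (SD, n = 3) of the class III type TPM in the mutant and 0.946% ± 0.0807 in WT.

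MELO3C002457.2, also described only as peroxidase, was high in young flesh and nearly gone from WT by 25 DAP. WT libraries read 209, 182 and 385 TPM at 15 DAP and at most 1 TPM at every later age. Mutant libraries read 2884, 1493 and 708 TPM at 15 DAP, 277, 243 and 302 on day 25, 95.2, 336 and 133 on day 35, and 3.94, 4.69 and 3.38 on day 45. The mutant libraries were above the WT libraries at every age, and at 15 DAP they were the most scattered. The difference was 2.56 at 15 DAP (SE 0.59, limma adjusted p = 0.0858, not called), 7.55 on day 25 (SE 0.22, adjusted p = 1.66e-05), 7.11 on day 35 (SE 0.50, adjusted p = 0.000213) and 2.13 on day 45 (SE 0.14, adjusted p = 0.000141). From 15 to 45 DAP it fell by 7.75 in WT and fell by 8.19 in the mutant.

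A run of peroxidases with consecutive identifiers, MELO3C014655.2 to MELO3C014658.2, shared the loss in WT after 15 DAP, although MELO3C014657.2 was already low there at 15 DAP. The most abundant, MELO3C014658.2, read 194, 172 and 230 TPM in WT at 15 DAP and at most 0.86 TPM afterwards. In the mutant it read 564, 860 and 382 TPM at 15 DAP, 237, 645 and 126 on day 25, 113, 460 and 163 on day 35, and 0.83, 0.64 and 0.22 on day 45. It was thus far above WT at 25 and 35 DAP, and the genotypes overlapped at 45 DAP. The difference was 7.70 at 25 DAP (SE 0.63, limma adjusted p = 0.000205), 7.49 on day 35 (SE 0.52, adjusted p = 0.000213) and 0.32 on day 45 (SE 0.20, adjusted p = 0.202). MELO3C014657.2 read 1.79, 1.02 and 2.46 TPM in WT and 18.7, 19.2 and 5.79 in the mutant at 15 DAP, a difference not called. It was called in the fit of all 24 libraries, with the filter on the 6 libraries fitted and without mutant replicate 3 (adjusted p = 0.00203, 0.0388 and 0.0282). The gene, at 9.93 to 49.8 TPM in the mutant and 0 to 0.28 TPM in WT at 25 DAP, differed by 4.42 (SE 0.56, adjusted p = 0.00103) at that age, and by 3.80 (SE 0.44, adjusted p = 0.0011) at 35 DAP. MELO3C014655.2 and MELO3C014656.2, named after their values were seen, differed by 1.80 and 3.50 at 25 DAP, 2.10 and 3.48 on day 35, and 2.62 and 1.62 on day 45, all called. Reads shared between near-identical copies may have been split among such genes, so their single values are uncertain.

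MELO3C003275.2 and MELO3C021914.2 (described as peroxidase 10-like) were called higher in the mutant than in WT at 25, 35 and 45 DAP. In mutant flesh MELO3C003275.2 was highest by group mean at 15 DAP, at 285, 62.6 and 36.5 TPM. Its mutant libraries then read 13.2, 7.23 and 24.4 TPM on day 25 and 87.5, 35.2 and 145 on day 35. MELO3C003275.2 read 34.6, 30.7 and 53.0 TPM in WT at 15 DAP and 0, 0.06 and 0 on day 45, against 22.4, 26.3 and 25.9 in the mutant on day 45, a difference of 4.66 (SE 0.11, limma adjusted p = 1.69e-05). MELO3C021914.2 read 3.86, 10.6 and 3.86 TPM in WT and 0.70, 1.15 and 1.33 in the mutant at 15 DAP. Its highest group mean was in the mutant at 35 DAP, where the libraries read 52.1, 28.9 and 87.7 TPM. At 45 DAP it read 0.12, 0.16 and 0.05 TPM in WT and 6.47, 26.0 and 28.9 in the mutant. The order of the genotypes was thus turned round between 15 and 45 DAP. The lower level of the mutant at 15 DAP was, however, not called (-1.67, SE 0.39, adjusted p = 0.0905). At 45 DAP the difference was 4.04 (SE 0.56, adjusted p = 0.00171), and over 15 to 45 DAP the gene fell by 2.55 in WT and rose by 3.16 in the mutant. Its call at 25 DAP (0.97, SE 0.29, adjusted p = 0.027) was lost under median-of-ratios scaling, where the difference was 0.63, and under quantile normalization, where it was 0.08. It was also lost with no filter (adjusted p = 0.075), in the fit of all 24 libraries (adjusted p = 0.0667) and without any 1 of the 6 libraries except mutant replicate 3.

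**Figure D3:**
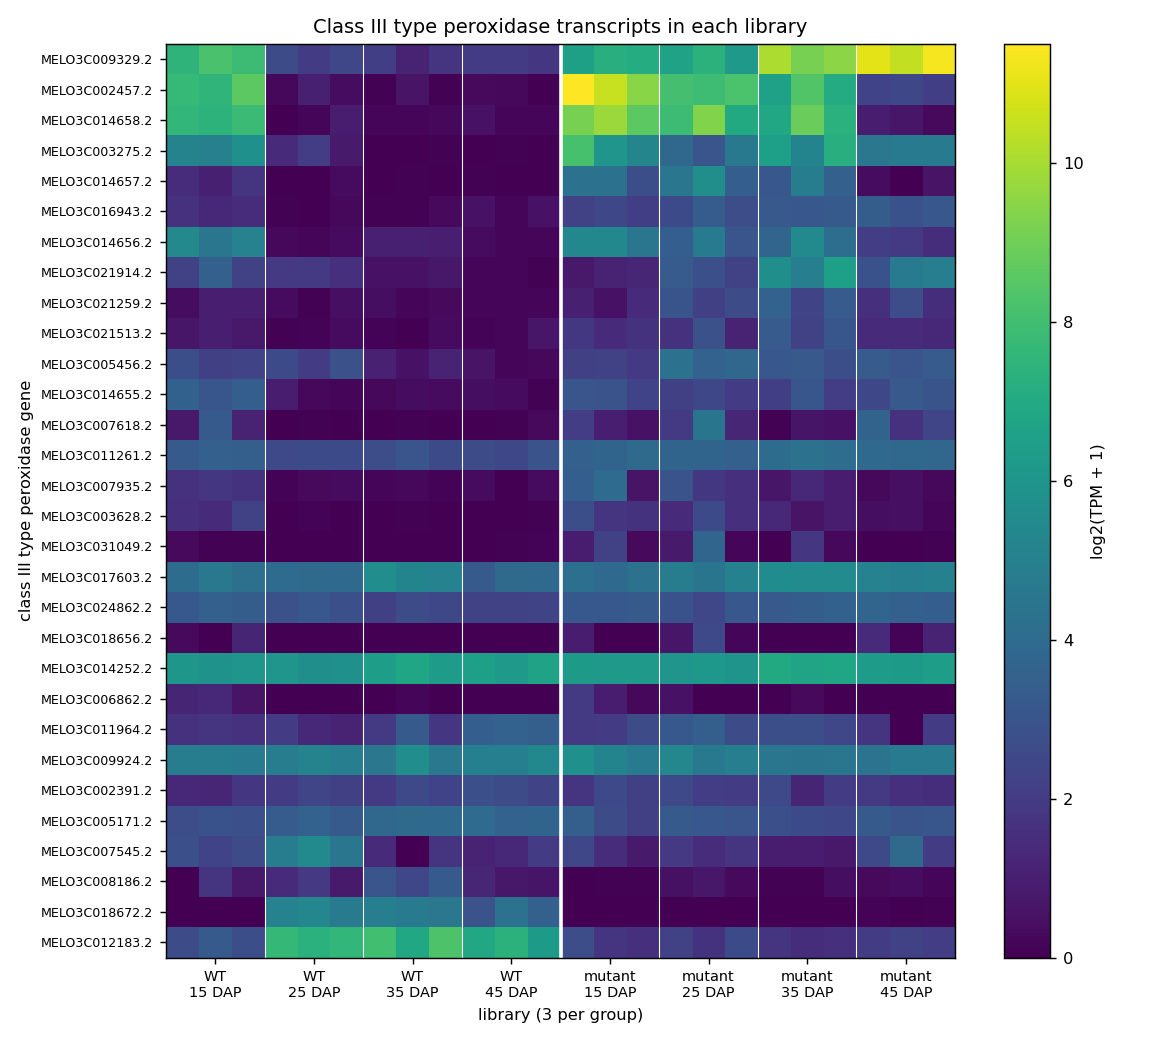
Level of each of the 30 class III type peroxidases (rows) in each of the 24 libraries (columns, by genotype and age), as log2(TPM + 1) on the colour scale. Genes at the top, such as MELO3C009329.2 (1369 to 2624 TPM in the mutant at 45 DAP), are high in the mutant, and genes at the bottom, such as MELO3C012183.2 (119 to 314 TPM in WT at 35 DAP), are high in WT.

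Other class III type peroxidases were high in WT flesh from 25 DAP on. MELO3C012183.2 read 5.27, 8.52 and 5.82 TPM in WT at 15 DAP, then 201, 163 and 195 on day 25, 257, 119 and 314 on day 35, and 115, 164 and 75.0 on day 45. In the mutant it read 5.64, 2.44 and 1.90 TPM at 15 DAP and 1.80 to 4.92 TPM in all 9 later libraries. WT libraries were thus high from 25 DAP on, and no mutant library was at any age sampled (genotype by age, limma F test, adjusted p = 1.82e-07). The difference was -5.38 at 25 DAP (SE 0.24, limma adjusted p = 3.39e-05), -6.14 on day 35 (SE 0.37, adjusted p = 0.000148) and -4.72 on day 45 (SE 0.28, adjusted p = 0.000103). From 15 to 45 DAP it rose by 3.94 in WT (SE 0.32, adjusted p = 0.00018), and the value in the mutant was 0.09 (SE 0.33, adjusted p = 0.875). In WT it made up 47.1% ± 4.94 (SD, n = 3) of the class III type TPM at 25 DAP and 48.0% ± 15.3 at 35 DAP.

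MELO3C018672.2 had the same course at a lower level. It was listed at 0 in every library of both genotypes at 15 DAP. WT libraries then read 33.1, 39.3 and 26.7 TPM at 25 DAP, 29.1, 25.0 and 22.6 on day 35, and 6.74, 19.3 and 10.4 on day 45. The mutant was listed at 0 at 25 and 35 DAP and at 0.08, 0 and 0.06 TPM at 45 DAP, so no fold is given. On the log2(TPM + 1) scale the differences were -5.07, -4.72 and -3.54 (limma adjusted p = 1.87e-05, 3.7e-05 and 0.000536). MELO3C007545.2 was high in WT only at 25 DAP among the ages sampled, at 28.2, 42.7 and 22.2 TPM against 2.73, 1.71 and 2.43 in the mutant (-3.25, SE 0.27, adjusted p = 0.000213). At 35 DAP its difference was -0.20 (adjusted p = 0.731) with WT replicate 2 and -0.74 (adjusted p = 0.0121) without it. By 45 DAP its values were 1.12, 1.41 and 3.04 TPM in WT and 4.85, 14.7 and 3.04 TPM in the mutant, and the difference was not called (1.39, SE 0.56, adjusted p = 0.0761).

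MELO3C014252.2, a class III type peroxidase, varied with age in both genotypes (limma F test, adjusted p = 0.00205 in WT and 0.000396 in the mutant), with no called genotype difference at any age. It ranged from 52.7 to 108 TPM over WT libraries and from 61.5 to 125 TPM over mutant libraries. Its differences were 0.21, 0.19, 0.31 and -0.09 at 15, 25, 35 and 45 DAP (SE 0.08, 0.08, 0.14 and 0.12; limma adjusted p = 0.216, 0.0883, 0.107 and 0.515). It was called higher in the mutant at 25 DAP without WT replicate 1 (0.26, adjusted p = 0.0265) and at 35 DAP without WT replicate 2 (0.44, adjusted p = 0.0199) or in the fit of all 24 libraries (adjusted p = 0.0233). At 45 DAP it was called lower under median-of-ratios scaling (-0.31, adjusted p = 0.038).

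Both catalases differed between the genotypes at 25, 35 and 45 DAP, in opposite directions. MELO3C026532.2, the more abundant, read 3407, 3590 and 3281 TPM in WT at 15 DAP, 2282, 2329 and 2163 on day 25, 730, 921 and 853 on day 35, and 1433, 1365 and 2044 on day 45. The mutant read 3159, 4495 and 4438 TPM at 15 DAP, 4230, 3966 and 3462 on day 25, 3695, 5268 and 4050 on day 35, and 4048, 3105 and 3416 on day 45. WT was lowest at 35 DAP, and the lowest mutant library read 3105 TPM, with no called effect of age (limma F test, adjusted p = 0.795). The difference was 0.78 at 25 DAP (SE 0.21, adjusted p = 0.0173), 2.37 on day 35 (SE 0.23, adjusted p = 0.000579) and 1.14 on day 45 (SE 0.28, adjusted p = 0.0145). The call at 25 DAP was lost under median-of-ratios scaling (0.33, adjusted p = 0.235) and without any 1 of the WT libraries or mutant replicate 1. At 45 DAP it was lost without WT replicate 1 or 2 or mutant replicate 3. With no filter on low values the adjusted p was 0.867, 0.0916 and 0.529 at the 3 ages.

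MELO3C017023.2, the second catalase, rose in WT and was low in the mutant. WT libraries read 135, 229 and 166 TPM at 15 DAP, 561, 645 and 615 on day 25, 487, 586 and 461 on day 35, and 893, 804 and 766 on day 45. Mutant libraries read 67.9, 63.1 and 85.9 TPM at 15 DAP, 85.7, 81.0 and 73.0 on day 25, 93.1, 36.7 and 66.2 on day 35, and 144, 229 and 201 on day 45. The genotypes did not overlap at any age. The difference was -1.25 at 15 DAP (SE 0.23, limma adjusted p = 0.0523, not called), -2.91 on day 25 (SE 0.09, adjusted p = 1.72e-05), -3.04 on day 35 (SE 0.35, adjusted p = 0.000999) and -2.12 on day 45 (SE 0.19, adjusted p = 0.000349). The difference at 15 DAP was called under median-of-ratios scaling, quantile normalization, the fit of all 24 libraries and the filter on 6 libraries (adjusted p = 0.0399, 0.0474, 0.00175 and 0.03), and with no filter its adjusted p was 0.123. The gene rose from 15 to 45 DAP in both genotypes, by 2.24 in WT (adjusted p = 0.000293) and by 1.38 in the mutant (adjusted p = 0.0107). As a share of catalase TPM it was 4.87% ± 1.10 (SD, n = 3) in WT at 15 DAP, 21.2% ± 1.28 on day 25, 38.0% ± 2.59 on day 35 and 34.2% ± 6.08 on day 45, and in the mutant 1.80%, 2.02%, 1.59% and 5.29%.

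**Figure D4:**
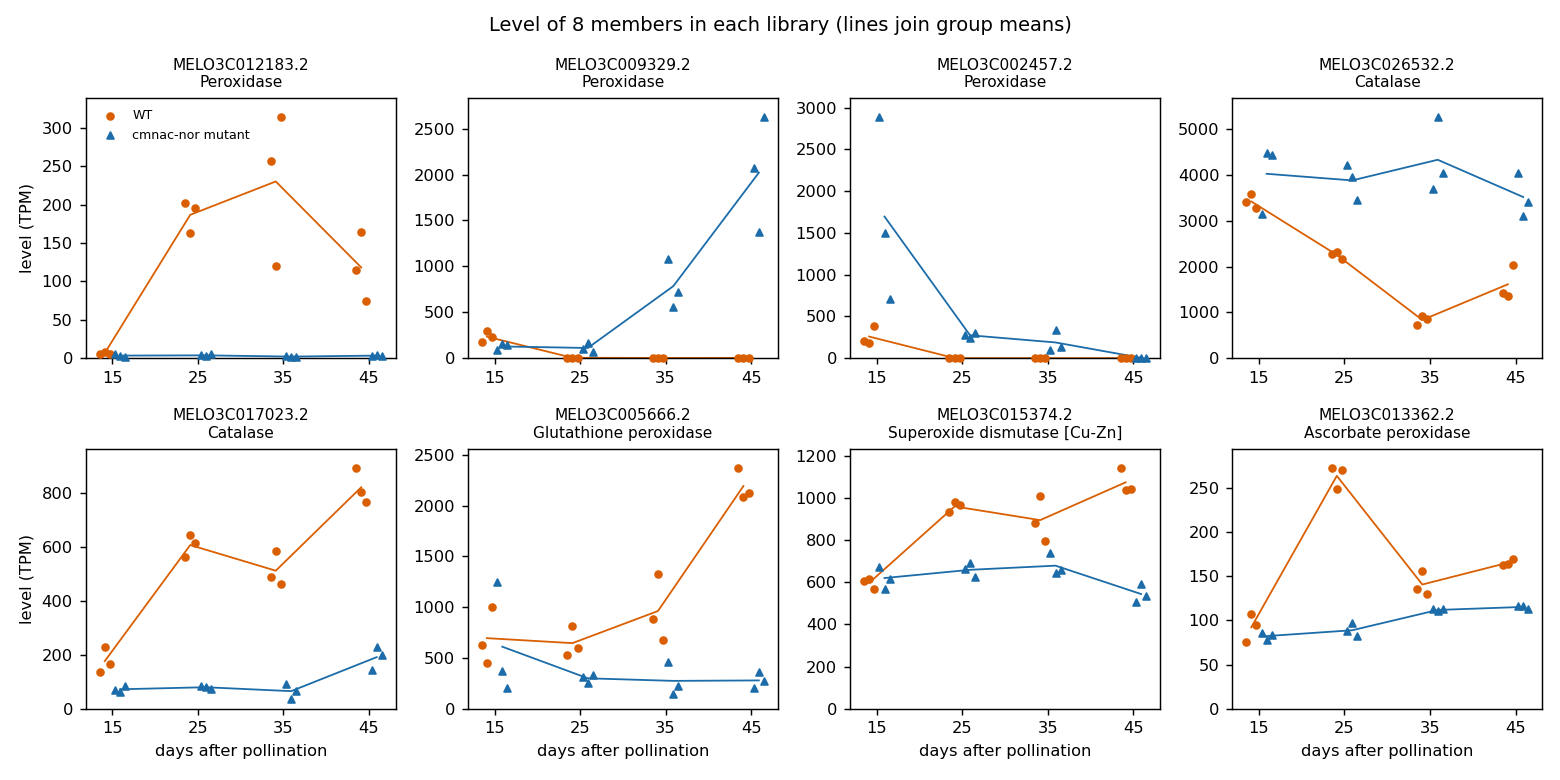
Level in TPM (linear axes from 0, different in each panel) of 8 members against age in days after pollination, with points for single libraries and lines through group means, for WT and mutant. MELO3C026532.2 has its lowest mutant library at 3105 TPM while it drops to 730 to 921 TPM in WT at 35 DAP, and MELO3C012183.2 stays at or under 5.64 TPM in the mutant while it reaches 119 to 314 TPM in WT at 35 DAP.

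Of the 8 superoxide dismutases, 4 were higher and 3 lower in the mutant at 25 DAP, 2 and 1 on day 35, and 1 and 4 on day 45. Their median difference was 0.14, -0.11 and -0.07, and at 25 DAP it was -0.31 under median-of-ratios scaling and -0.07 under quantile normalization. The most abundant, the Cu-Zn enzyme MELO3C015374.2, read 605, 617 and 568 TPM in WT at 15 DAP and 1142, 1034 and 1043 at 45 DAP, against 674, 567 and 617 and then 505, 590 and 536 in the mutant. It rose in WT by 0.85 (SE 0.11, limma adjusted p = 0.00099), and the value in the mutant was -0.19 (SE 0.12, adjusted p = 0.32). The mutant was lower at 25 DAP (-0.54, SE 0.09, adjusted p = 0.00264) and on day 45 (-0.98, SE 0.12, adjusted p = 0.000933), and on day 35 the difference was not called (-0.39, adjusted p = 0.0558), although it was under median-of-ratios scaling (-0.65, adjusted p = 0.00626) and in the fit of all 24 libraries (adjusted p = 0.0025).

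Some superoxide dismutases were higher in the mutant. MELO3C020487.2 stood at 177 to 195 TPM in WT and 284 to 343 TPM in the mutant at 35 DAP (0.73, SE 0.10, limma adjusted p = 0.00188). Its difference of 0.46 at 25 DAP was 0.01 under median-of-ratios scaling. MELO3C008809.2, a Cu-Zn enzyme named after its values were seen, fell in WT from 34.6, 28.0 and 29.1 TPM at 15 DAP to 2.07, 1.58 and 0.78 TPM on day 45 and read 19.7, 23.0 and 20.1 TPM in the mutant on day 45. It was higher in the mutant by 2.82, 1.90 and 3.18 at 25, 35 and 45 DAP (adjusted p = 5.54e-05, 0.000353 and 0.000163). MELO3C004342.2, one of the genes whose call changed side, read 27.9, 26.9 and 25.7 TPM in WT at 45 DAP against 7.68, 7.82 and 5.96 in the mutant (-1.78, SE 0.12, adjusted p = 0.000138).

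The 2 most abundant ascorbate peroxidases and the 2 most abundant monodehydroascorbate reductases differed between genotypes by at most 1.56 on the log2 scale in either direction. Of 5 ascorbate peroxidases 2 were higher and 2 lower in the mutant at 25 DAP, 0 and 2 on day 35, and 1 and 2 on day 45. MELO3C020719.2, the most abundant, rose in WT from 412, 417 and 472 TPM at 15 DAP to 1077, 859 and 991 TPM at 45 DAP (1.16, SE 0.13, limma adjusted p = 0.000609). It reached 919, 928 and 1061 TPM in the mutant, which overlapped WT (-0.01, SE 0.15, adjusted p = 0.985). It was higher in the mutant at 25 DAP, at 531, 602 and 583 TPM against 401, 404 and 402 (0.50, SE 0.08, adjusted p = 0.00192), a difference of 0.05 under median-of-ratios scaling. At 35 DAP WT replicate 2 read 1074 TPM against 518 and 431 in the other WT libraries, and without it the mutant was called higher (0.72, adjusted p = 0.0191) where with it the difference was 0.33 (SE 0.37, adjusted p = 0.47).

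MELO3C007923.2, an ascorbate peroxidase of low level at this age and named after its values were seen, read 0.27, 0.62 and 0.21 TPM in WT and 12.8, 7.63 and 8.45 in mutant flesh at 25 DAP (2.94, SE 0.23, limma adjusted p = 0.000171).

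MELO3C013362.2, the second ascorbate peroxidase, was highest in WT at 25 DAP, and its course differed between genotypes (genotype by age, limma F test, adjusted p = 4.33e-07). WT libraries read 75.2, 107 and 94.8 TPM at 15 DAP and 273, 248 and 270 at 25 DAP. Mutant libraries read 85.6, 77.8 and 83.3 TPM and then 87.5, 97.1 and 81.9. The difference at 25 DAP was -1.56 (SE 0.08, limma adjusted p = 5.01e-05), on day 35 -0.32 (SE 0.08, adjusted p = 0.0195, lost without mutant replicate 2 or 3) and on day 45 -0.52 (SE 0.05, adjusted p = 0.000462).

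Of 5 monodehydroascorbate reductases 2 were higher and 2 lower in the mutant at 25 DAP, 0 and 2 on day 35, and 1 and 2 on day 45. MELO3C009453.2 read 112, 134 and 126 TPM in WT and 267, 275 and 238 in the mutant at 25 DAP (1.06, SE 0.09, limma adjusted p = 0.00026). At 35 DAP it read 106, 257 and 99.9 TPM in WT, replicate 2 again standing apart, and 226, 210 and 204 in the mutant. The difference there was 0.61 (SE 0.38, adjusted p = 0.217) with that library and 1.05 (adjusted p = 0.000693) without it. At 45 DAP it read 185, 178 and 176 TPM in WT and 160, 169 and 161 in the mutant (-0.14, not called). There it was called lower with no filter (adjusted p = 0.0404), under median-of-ratios scaling (-0.36, adjusted p = 0.00323) and under quantile normalization (-0.17, adjusted p = 0.0364). MELO3C024527.2 read 191, 201 and 196 TPM in WT and 143, 135 and 118 in the mutant at 25 DAP, and 67.3, 62.7 and 80.0 against 94.0, 115 and 97.3 at 45 DAP. Its difference was -0.57 (SE 0.08, adjusted p = 0.00165) at the earlier age and 0.54 (SE 0.12, adjusted p = 0.0116) at the later, where it was 0.32 (adjusted p = 0.0722) under median-of-ratios scaling.

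One glutathione peroxidase, MELO3C005666.2, averaged 55.8%, 57.0%, 63.4% and 86.7% of the TPM of its group in WT at 15, 25, 35 and 45 DAP. In the mutant it averaged 50.9%, 37.4%, 36.2% and 40.8%. It read 633, 447 and 1006 TPM in WT at 15 DAP, 525, 815 and 598 on day 25, 882, 1323 and 682 on day 35, and 2372, 2085 and 2123 on day 45. Mutant libraries read 1250, 376 and 208 TPM at 15 DAP, 312, 257 and 332 on day 25, 457, 148 and 220 on day 35, and 201, 361 and 276 on day 45. The genotypes overlapped at 15 DAP, where the mutant libraries were widely scattered, and were apart afterwards. The difference was -1.09 at 25 DAP (SE 0.19, limma adjusted p = 0.00394), -1.91 on day 35 (SE 0.48, adjusted p = 0.0173, lost without WT replicate 1 or 2 or mutant replicate 3) and -3.01 on day 45 (SE 0.23, adjusted p = 0.000216). It rose from 15 to 45 DAP in WT by 1.73 (SE 0.30, adjusted p = 0.00381) and was 86.7% ± 0.155 (SD, n = 3) of glutathione peroxidase TPM there at 45 DAP, against 40.8% ± 7.88 in the mutant.

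Calls of the glutathione peroxidases went both ways. Of the 6, MELO3C005666.2 included, 3 were higher and 2 lower in the mutant at 25 DAP, 1 and 3 on day 35, and 2 and 1 on day 45. The 1 called lower on day 45 was MELO3C005666.2. MELO3C014348.2 fell in WT from 296, 333 and 296 TPM at 15 DAP to 110, 86.2 and 83.3 TPM at 45 DAP (fell by 1.73, SE 0.13, limma adjusted p = 0.000144) and in the mutant from 220, 257 and 217 to 151, 160 and 136 TPM (fell by 0.63, SE 0.11, adjusted p = 0.0143). It was higher in the mutant at 45 DAP by 0.68 (SE 0.13, adjusted p = 0.00559). Its difference of 0.35 at 25 DAP (adjusted p = 0.0291) became -0.10 under median-of-ratios scaling. That call was also lost with no filter (adjusted p = 0.0625), under quantile normalization (0.21, adjusted p = 0.189) and in the fit of all 24 libraries (adjusted p = 0.106). It was lost too without any 1 of the 6 libraries except mutant replicate 2. The difference of 0.04 at 35 DAP became -0.29 (adjusted p = 0.029) without WT replicate 2. MELO3C016951.2, named after its values were seen, was lower in the mutant at 25 and 35 DAP (-0.80 and -0.75, adjusted p = 0.000703 and 0.00286) and not called at 45 DAP (-0.18, adjusted p = 0.164). MELO3C005667.2, whose identifier is next to that of MELO3C005666.2 and which is named after its values were seen, was higher in the mutant by 0.98, 1.17 and 1.47 at 25, 35 and 45 DAP, all called.

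Of 9 peroxiredoxins, thiol enzymes reduced by thioredoxin, 2 were higher and 4 lower in the mutant at 25 DAP, 1 and 2 on day 35, and 3 and 1 on day 45. Their median difference was -0.36 at 25 DAP, where the all-gene median was 0.44. The 2-Cys peroxiredoxin MELO3C009519.2, of a type found in chloroplasts, read 117, 142 and 118 TPM in WT at 15 DAP and 360, 318 and 353 at 25 DAP, against 184, 148 and 154 and then 267, 260 and 237 in the mutant. It was lower in the mutant at 25 DAP (-0.43, SE 0.08, limma adjusted p = 0.0047) and not called at the other ages. MELO3C007446.2, described as a chloroplastic peroxiredoxin Q like MELO3C025034.2 and MELO3C035474.2, read 37.8, 44.7 and 43.0 TPM in WT at 25 DAP. It read 17.1, 18.5 and 12.4 TPM in mutant flesh at that age (-1.35, SE 0.16, adjusted p = 0.000819). At 45 DAP it came out above WT in the mutant (0.48, SE 0.15, adjusted p = 0.0374). MELO3C025034.2 was called lower in the mutant at 2 ages and higher at 0, and MELO3C035474.2 was called at no age. Both are named after their values were seen. Chloroplastic peroxiredoxins did not all go the same way at 25 DAP. MELO3C009429.2, a peroxiredoxin-2E-2 named after its values were seen, read 32.4, 37.9 and 37.5 TPM in WT and 60.8, 57.0 and 41.2 in the mutant. MELO3C035474.2 stood at 9.94 to 10.9 TPM in WT and 9.52 to 11.3 TPM in the mutant. Of 71 genes of green tissue (chlorophyll-binding, photosystem and small RuBisCO subunit proteins), 2 were higher and 49 lower in the mutant at 25 DAP. Their sums were 17853 to 25085 TPM in WT and 2194 to 3355 TPM in the mutant. At 45 DAP, where MELO3C007446.2 was higher in the mutant, 5 of these genes were higher and 24 lower. Their part in the peroxiredoxin differences was not tested.

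MELO3C021410.2, described as a putative peroxiredoxin, was lower in the mutant at 25, 35 and 45 DAP (differences of -0.36, -0.40 and -0.41, limma adjusted p = 0.00267, 0.0151 and 0.0463). The call at 45 DAP was lost without any of 5 of the 6 libraries, all but mutant replicate 2, and that at 35 DAP without mutant replicate 3. MELO3C024691.2, named after its values were seen, fell in WT from 86.1, 121 and 97.6 TPM at 15 DAP to 25.1, 23.1 and 37.6 TPM at 45 DAP. In the mutant it read 112, 97.5 and 85.8 TPM and then 133, 161 and 160. The difference at 45 DAP was 2.39 (SE 0.20, adjusted p = 0.00028), the highest among the peroxiredoxins at that age.

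The haloperoxidase-related proteins and the OCP3 homologue matched by name. MELO3C019302.2 was higher in the mutant at 25, 35 and 45 DAP, by 0.77, 0.97 and 0.98 (limma adjusted p = 0.000501, 0.00135 and 0.000751). MELO3C019603.2 was lower at 25 and 35 DAP, by -2.04 and -1.53 (adjusted p = 0.000337 and 0.000787), with WT at 76.9, 65.9 and 89.9 TPM and the mutant at 21.0, 20.0 and 13.8 TPM at 25 DAP. Its difference at 45 DAP was 0.16 (adjusted p = 0.331). The OCP3 homologue MELO3C003685.2, a homeodomain protein in Arabidopsis, ranged from 30.6 to 46.8 TPM in WT, where it varied with age (limma F test, adjusted p = 0.00844), and from 40.5 to 46.8 TPM in the mutant. It was called higher in the mutant at 25 and 35 DAP (0.40 and 0.41), and under median-of-ratios scaling these were -0.04 and 0.16, neither called.

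Age was examined within each genotype. By limma's F test over the 3 differences from 15 DAP, 64 of 70 members varied with age in WT (81.7% of all genes) and 39 in the mutant (45.7% of all genes). The effect of age differed between genotypes, by the F test of the interaction over all 24 libraries, for 60 of 70 members, where 73.5% of all genes were called. From 15 to 45 DAP 28 members rose and 28 fell in WT, against 25.1% and 37.9% of all genes, and 16 rose and 12 fell in the mutant, against 13.5% and 12.4%. In WT the 17 falling class III type peroxidases made up most of the falls, while 6 of 9 peroxiredoxins, 5 of 8 superoxide dismutases, 3 of 5 ascorbate peroxidases and 3 of 6 glutathione peroxidases rose. In the mutant 5 of 9 peroxiredoxins and 1 of 8 superoxide dismutases rose. The libraries at 15 and 45 DAP did not overlap for 60 members in WT (69.6% of all genes) and for 40 in the mutant (45.5%). By highest group mean, as a description, 14 of 70 members (20.0%) peaked in WT at 25 DAP, beside 9.63% of all genes, and these included 3 of 5 ascorbate peroxidases and 3 of 9 peroxiredoxins. Of the 30 class III type peroxidases 8 peaked in the mutant at 15 DAP, 5 on day 25, 7 on day 35 and 2 on day 45, in percent 26.7%, 16.7%, 23.3% and 6.67%, beside 14.5%, 13.8%, 15.1% and 11.8% of all genes.

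The surrounding pathways, listed by words in the descriptions, were counted in the same fits. Over all genes 50.5% were higher and 19.6% lower at 25 DAP, 38.5% and 21.5% on day 35, and 40.3% and 22.7% on day 45. Of 8 NADPH oxidases, the enzymes that make superoxide at the cell surface, 5 were higher and 3 lower in the mutant at 25 DAP, 3 and 3 on day 35, and 4 and 1 on day 45. Of 86 thioredoxins and glutaredoxins 41 were higher and 25 lower, then 35 and 22, and 40 and 22 at these ages. For 48 glutathione enzymes the counts were 21 and 8, 19 and 7, and 15 and 16. For 15 genes of ascorbate synthesis and oxidation they were 4 and 5, 5 and 7, and 6 and 5. For 61 genes described as peroxisomal, as a peroxin, or as a glycolate, acyl-CoA or polyamine oxidase, they were 16 and 27, 20 and 24, and 16 and 24. This list was not limited to genes that make hydrogen peroxide. Of 48 monolignol and phenylpropanoid enzymes, which make the lignin precursors that class III peroxidases can couple, 27 were higher and 12 lower, then 15 and 12, and 15 and 12. Of 7 laccases, which also act on these precursors, 3 were higher and 0 lower, then 2 and 0, and 1 and 1. Shares at these ages are given for the lists of at least 48 genes. Thioredoxins and glutaredoxins had 47.7%, 40.7% and 46.5% higher and 29.1%, 25.6% and 25.6% lower. Glutathione enzymes had 43.75%, 39.6% and 31.25% higher and 16.7%, 14.6% and 33.3% lower. Peroxisomal genes had 26.2%, 32.8% and 26.2% higher and 44.3%, 39.3% and 39.3% lower. Monolignol enzymes had 56.25%, 31.25% and 31.25% higher and 25% lower at each age. The list medians at 25 DAP ran from -0.19 for the peroxisomal genes to 0.86 for the laccases, with 0.44 over all genes.

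Several genes of these lists, named after their values were seen, had large differences. The NADPH oxidase MELO3C026754.2 averaged 2.41 ± 0.929 TPM (SD, n = 3) in WT and 115 ± 90.7 in mutant flesh at 45 DAP (4.83, SE 0.58, limma adjusted p = 0.001), and MELO3C003540.2, of the same list, averaged 127 ± 20.2 TPM in WT and 8.05 ± 4.61 in mutant flesh at 25 DAP (-3.98, SE 0.46, adjusted p = 0.000727). The cinnamoyl-CoA reductase MELO3C026745.2, of the lignin precursor pathway, averaged 2.32 ± 1.93 TPM in WT and 206 ± 144 in mutant flesh at 25 DAP (5.88, SE 0.62, adjusted p = 0.000502). The peroxisomal 3-ketoacyl-CoA thiolase MELO3C006334.2, an enzyme of fatty acid breakdown, averaged 2871 ± 241 TPM in WT and 81.9 ± 18.97 in mutant flesh at 35 DAP (-5.13, SE 0.18, adjusted p = 4.75e-05). Among ascorbate genes MELO3C013307.2, an L-ascorbate oxidase homologue, averaged 674 ± 70.9 TPM in WT and 10.4 ± 0.488 in mutant flesh at 25 DAP (-5.89, SE 0.09, adjusted p = 7.72e-06). MELO3C015643.2, an L-ascorbate oxidase, averaged 0.347 ± 0.0874 TPM in WT and 3269 ± 463 in mutant flesh at 35 DAP (11.24, SE 0.12, adjusted p = 3.55e-06).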

How the data were processed

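Gene levels were TPM values made by the authors for 24 libraries in 1 deposited table; the unit is inferred from the values, which sum to at most 963192 per library. TopHat2, HISAT2, StringTie and Cufflinks are listed, with no role or version, in the submitters' processing notes. The genome build, the annotation and whether counting used strand are each "not given in the sources used here". No sequence is printed because 0 members matched the RefSeq gene table. Genes with at least 1 TPM in at least 3 libraries were tested with limma 3.58.1 in R 4.3.3 (trended variance, log2(TPM + 1), Benjamini-Hochberg over all 17658 genes), in the 6 libraries of each comparison. The F tests used the 12 libraries of a genotype or all 24. Scripts were tested on simulated data. Alternatives were a pseudocount of 0.1, no filter, median-of-ratios scaling, quantile normalization, 1 fit of all libraries, a replicate block and leaving out each library.

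Named members are the 2 highest by mean TPM in each enzyme group (4 for class III type), and the 3 called members with the most extreme change in each direction at each age, among those with no overlap between genotypes and at least 10 TPM in the higher group. The members, groups and lists were chosen with earlier results of these data known.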

Additional observations from a re-analysis of the deposited data

Results flagged for a closer look

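The effect of age differed between WT and mutant, by limma's F test of the interaction over all 24 libraries, for 60 of the 70 members, beside 73.5% of all genes tested, and for 23 of the 25 members named by level or size of change. Among the class III type peroxidases the adjusted p was 5.08e-11 for MELO3C009329.2, 1.21e-09 for MELO3C018672.2, 2.53e-08 for MELO3C014658.2, 1.82e-07 for MELO3C012183.2, 2.02e-07 for MELO3C021914.2 and 2.38e-07 for MELO3C002457.2. It was 9.84e-05 for MELO3C007545.2, 0.00011 for MELO3C003275.2 and 0.000156 for MELO3C014657.2, all of the same enzyme group. Of the catalases, MELO3C026532.2 had an adjusted p of 1.21e-05 and MELO3C017023.2 of 0.000657.

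Among the ascorbate enzymes the interaction had an adjusted p of 4.33e-07 for the peroxidase MELO3C013362.2, and of 0.000811 and 0.0181 for the monodehydroascorbate reductases MELO3C024527.2 and MELO3C009453.2. The superoxide dismutases MELO3C015374.2 and MELO3C020487.2 had 6.13e-05 and 0.034, the glutathione peroxidases MELO3C014348.2 and MELO3C005666.2 had 0.00788 and 0.0188, and the peroxiredoxins MELO3C009519.2 and MELO3C021410.2 had 0.0117 and 0.0461. The haloperoxidase-related MELO3C019603.2 and MELO3C019302.2 had 1.17e-06 and 0.00189, and the OCP3 homologue MELO3C003685.2 had 0.0238.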

How the results depend on the processing

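The 1 member called higher at 15 DAP became 0 with no filter, 2 under median-of-ratios scaling, 8 in 1 fit of all 24 libraries and 3 with a filter on the 6 libraries fitted, the last chosen after seeing the data. The 0 called lower became 1 under median-of-ratios scaling, quantile normalization and the filter on 6 libraries, and 2 in the fit of all 24. The causes were not tested. Leaving out 1 library gave 0 to 4 higher and 0 to 0 lower at 15 DAP, 29 to 34 and 19 to 21 at 25 DAP, 22 to 29 and 11 to 18 at 35 DAP (11 without mutant replicate 3), and 21 to 26 and 15 to 17 at 45 DAP. From 15 to 45 DAP it gave 21 to 27 rising and 24 to 27 falling in WT, and 9 to 17 and 7 to 13 in the mutant (9 and 7 without mutant replicate 3 at 45 DAP). The F tests gave 61 to 66, 30 to 43 and 56 to 61. Of 1296 other values of named members, 1211 kept their call or stayed uncalled, 51 lost and 31 gained a call, and 3 reversed. Direction was compared only where the main or the alternative fit called the gene, so values called in neither may have changed sign. The 3 reversed were at 25 DAP under median-of-ratios scaling MELO3C014348.2 (-0.10) and MELO3C003685.2 (-0.037), and at 35 DAP MELO3C014348.2 (-0.29) without WT replicate 2, where leaving out single libraries gave -0.29 to 0.22. Libraries with the same replicate number did not deviate together (correlations -0.314 to 0.0619), and the tests took them as unpaired. The labels do not say what the numbers mean, so whether they pair libraries is unknown. With the replicate block 0 members were higher at 15 DAP and 9 rose from 15 to 45 DAP in the mutant, where 16 did without it.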
